A study of Mus musculus with 16 samples.

Results

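The response of brown fat to isoproterenol was compared between wild-type mice (WT) and mice without uncoupling protein 1 (KO, labelled Ucp1-knockout), gene by gene, as a difference of differences: the mean log2 level in KO isoproterenol minus KO saline, less the same difference in WT. All 15350 genes of the deposited values and all 16 libraries entered this genotype-by-treatment interaction, and a gene was called where its adjusted p was under 0.05 (limma, 1 fit over the 4 groups, Benjamini-Hochberg adjustment over the 15350 genes). By this rule the response differed between the genotypes for 3787 genes, 24.7% of those tested. The tissue was interscapular brown fat of C57BL/6J mice, and each of the 4 groups held 4 libraries. WT saline and KO saline mice carried minipumps delivering saline, and WT isoproterenol and KO isoproterenol mice carried minipumps delivering isoproterenol at 60 mg/kg/day for 3 days. The labels give neither age nor sex, do not say which part of Ucp1 the knockout lacks, and do not say that each library is a separate animal, so the p-values measure the spread between these libraries.

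UCP1 lets protons cross the inner membrane of brown fat mitochondria without making ATP, so that fuel oxidation is released as heat. Isoproterenol activates beta-adrenergic receptors, which raise cyclic AMP, start the breakdown of stored fat and switch on transcription of genes for heat production, fuel uptake and mitochondrial growth. Sustained stimulation of brown fat is also known to induce fat synthesis alongside fat burning, to make precursor and endothelial cells divide, and to draw in macrophages.

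Without Ucp1, isoproterenol lowered genes of respiration and fat synthesis that rose in WT or had no called response there. It raised interferon, cytokine, macrophage and lysosomal genes beyond their WT response. The interaction was lower for 43 of 44 nuclear-encoded subunits of the respiratory chain and 14 of 23 genes of lipogenesis, against 13.8% of all genes, and higher for 25 of 30 interferon-response genes and 13 of 23 macrophage markers, against 10.9% of all genes. Car14, Fasn and Ldha rose in WT and fell in KO, Slc2a1 did the reverse, and the WT rise of Elovl6 was lost. Cell cycle genes rose in both genotypes, and the interaction was called for 2 of 30 (6.67%, against 24.7% of all genes). So few calls do not show that the responses were alike, since only 3 of the 30 met the rule for similar responses given below. Without the library KO isoproterenol 1, the interaction was called higher for 1 and lower for 3, with a list median of -0.99.

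Values are given as counts per 1e6 reads (CPM) for single libraries, in the order of replicates 1 to 4, where a library with no read of a gene holds the value of the 0.5 reads added to every count. Differences are of mean log2 CPM, given with their standard error (SE), so that 1 is a 2-fold change and -1 a fall to 1 part in 2. Ucp1, the targeted gene, was at 2298, 3449, 3219.7 and 3339 CPM in WT saline and 8905, 11662, 17655 and 18458 in WT isoproterenol. Ucp1 in KO was at 1118, 588, 1156 and 409.8 with saline and 19, 268, 848 and 2129 with isoproterenol. It was lower in every library labelled KO than in every WT library, and the KO isoproterenol libraries were the most spread. Its isoproterenol response was 2.16 ± 0.98 in WT (adjusted p = 0.152) and -1.27 ± 0.98 in KO (adjusted p = 0.303). The difference between these, -3.43 ± 1.39, was not called (adjusted p = 0.0826). The fit takes 1 spread per gene over the 4 groups, so this WT standard error also carries the spread of KO isoproterenol. For Ucp1, all 4 WT isoproterenol libraries lay above all 4 WT saline libraries. With 1 weight per group in the fit, the Ucp1 interaction was called (adjusted p = 0.0217). Of the 16 fits without 1 library it was called in 1, that without KO isoproterenol 4 (adjusted p = 0.0102). In the others its adjusted p ran up to 0.139 (without WT isoproterenol 4).

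Libraries held 9004515 to 20986735 reads. The 4 KO isoproterenol libraries were the most unlike one another: on the first principal component (50.3% of the variance) they lay at 57.5 to 176 and the other 12 libraries at -62.0 to 3.97, and a fit with 1 weight per group gave them 0.35 against 1.19 to 1.72 for the other groups. KO isoproterenol 1 lay farthest out and KO isoproterenol 4 nearest to the rest. Skeletal muscle markers varied across every group, with scores (the mean of centred log2 CPM over the list) from -3.91 to 5.16, and 0 of their 19 measured genes were called in the interaction by limma (1 with an unadjusted p under 0.05, 0 called with precision weights and 1 without WT saline 4). Adipoq, the adipocyte hormone adiponectin, was between 201 and 2019 CPM over the 16 libraries, with its lowest 2 values in KO isoproterenol 1 and 2. No gene encoded by mitochondrial DNA is among the 15350. In bulk tissue, fewer cells of a type and less RNA per cell cannot be told apart, which holds for every gene list below.

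Of the 3787 genes called, 1674 (10.9% of all genes) responded more positively in KO than in WT and 2113 (13.8%) more negatively. The change was at least 2-fold for 2709 of them, 1150 higher and 1559 lower. The split depended on the scaling: the deposited values use library sizes of 0.854 to 1.25 times the read totals, and scaling by the read totals instead moved the median interaction of all genes by 0.295, from 0.044 to 0.339, and gave 2895 higher and 1477 lower calls, 66.2% higher against 44.2%. The isoproterenol response itself was called for 2546 genes in WT (16.6%) and 7460 in KO (48.6%). Leaving out KO isoproterenol 1 left 3776 genes called, 3370 of them shared with the full fit, and 2422 genes were called in each of the 16 fits that left out 1 library.

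Combining the interaction call with the calls of each genotype's own response separated several patterns, plotted for every gene in the scatter of WT against KO responses. A response was gained, meaning called in KO and not in WT, for 2860 genes, of which 1356 rose and 1504 fell in KO. The median response of the 1356 was 1.47 in KO and -0.04 in WT, and that of the 1504 was -1.34 in KO and 0.13 in WT. A WT response was lost in KO for 368 genes: 228 that rose in WT (median 0.94 in WT, -0.20 in KO) and 140 that fell (median -0.81 in WT, 0.13 in KO). Both responses were called with opposite signs for 142 genes. Of these, 100 rose in WT and fell in KO and 42 fell in WT and rose in KO. All 142 stayed called in the interaction in each of the 16 fits without 1 library. The rule asks for 2 called responses of opposite sign, which by itself makes the interaction large, so this is no support of its own. Another 211 genes moved the same way in both genotypes but further in KO, 24 moved less far in KO, and 182 differed with neither response called.

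**Figure D1:**
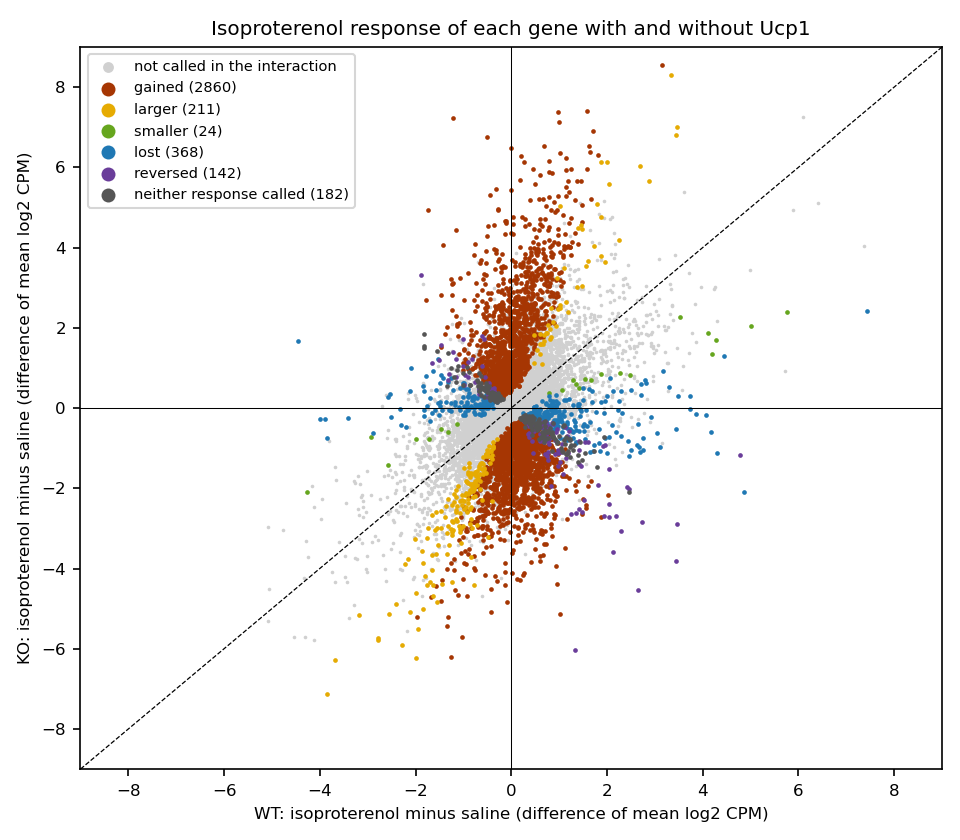
Isoproterenol response of each of 15350 genes in WT (horizontal axis) and KO (vertical axis), as the difference of mean log2 CPM between 4 isoproterenol and 4 saline libraries, with the dashed line marking equal responses. The 2860 gained responses (brown) run along the vertical axis, the 368 lost ones (blue) along the horizontal axis, and the 142 reversed ones (purple) lie in the upper left and lower right corners.

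These class sizes rest on where each response crosses the threshold. The main fit takes the same spread for both genotypes, so a WT response can go without a call through the spread of KO isoproterenol. Of the 1504 gained falls, 442 had no overlap between the treatments in WT either, as had 193 of the 1356 gained rises. When each genotype's response was fitted on its own 8 libraries, 1995 responses were gained, 799 lost and 257 reversed, and 1 weight per group gave 2259, 668 and 382. Leaving out KO isoproterenol 4 raised the reversed genes to 384 and leaving out WT isoproterenol 4 lowered them to 69.

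Of 167 called genes chosen for naming, 137 were called in each of the 16 fits without 1 library and 30 were not, with an adjusted p up to between 0.0504 (Metrnl, without WT isoproterenol 4) and 0.104 (Elovl3, without WT saline 1). Those called in 8 or fewer of the 16 were Aqp1, Col10a1, Magel2, Sc5d, Atf5, Chac1, Egr1, Psmd2, Acot12, Rgs5, Shisa9, Psmc4, Cideb, Elovl3 and Pcna. When each value was weighted by the precision that its read number gives, 20 of the 167 were not called: Rhov, Magel2, Elovl3, Acot12, Egr1, Fam110c, Fras1, Rab17, Col10a1, Acaa2, Chac1, Sdf2l1, Mx1, Mmp8, Timp1, Mmp13, Cdt1, Metrnl, Itih4 and Lor. Scaled by read totals, 10 were not: Elovl3, Plin3, Cideb, Mvk, Sc5d, Atf2, Atf5, Rgs5, Psmc4 and Itih4. With 1 weight per group 9 were not (Magel2, Egr1, Fam110c, Hist1h1d, Hist1h3d, Shisa9, Mvk, Sc5d and Chac1), and with the replicate number as a block within each genotype 13 were not (Magel2, Elovl3, Acot12, Col10a1, Shisa9, Plin3, Cideb, Mvk, Atf2, Psmc1, Psma5, Psmd2 and Psmc4). None of the 167 turned direction under any setting run.

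WT responses were partly kept in KO. Of the 1167 genes that rose in WT, 553 also rose in KO, 514 were not called there and 100 fell; their median response was 1.0 in WT and 0.51 in KO. Of the 1379 that fell in WT, 859 also fell in KO, 478 were not called and 42 rose, with medians of -0.87 and -0.73. Across all genes the 2 responses, which share no library, had a Pearson correlation of 0.415 and a Spearman correlation of 0.357, over genes and not over independent replicates.

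Genes whose response reversed included enzymes of fat synthesis and of acid-base and lactate handling. Genes named as the largest of a class, here and below, were picked among those without overlap between treatments in the responding genotype. That lack of overlap was therefore fixed by the choice and is no support of its own. Car14, a membrane-bound carbonic anhydrase, was at 21.2, 40.1, 23.1 and 20 CPM in WT saline and 59.1, 45.8, 57.5 and 104 in WT isoproterenol. Car14 in KO was at 25.1, 29.4, 18 and 37.9 with saline and 0.166, 0.772, 0.496 and 0.426 with isoproterenol. The 4 WT isoproterenol libraries lay above all 4 WT saline libraries, and the 4 KO isoproterenol libraries lay far below every other library, KO isoproterenol 4 included. Its response was 1.34 ± 0.40 in WT and -6.03 ± 0.40 in KO, a difference of -7.37 ± 0.56 (adjusted p = 9.01e-06).

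Pon1, which encodes a lactone-hydrolysing enzyme carried on lipoproteins, was at 25.9, 53.2, 33.8 and 32.6 CPM in WT saline and 209, 242, 122 and 138 in WT isoproterenol. Pon1 in KO was at 57.5, 51.3, 18.4 and 26.1 with saline and 3.64, 3.86, 3.06 and 6.59 with isoproterenol. No isoproterenol library overlapped its own saline group, in opposite directions in the 2 genotypes, and the difference was -5.36 ± 0.51 (adjusted p = 3.36e-05). S100b, a calcium-binding protein described as a sympathetic nerve growth signal from brown adipocytes and also made by Schwann cells, was at 43.3, 71.1, 104 and 63.2 CPM in WT saline and 271, 240.5, 303 and 288 in WT isoproterenol. S100b in KO was at 92.5, 165, 89.4 and 126 with saline and 11.4, 13.9, 15.4 and 38.1 with isoproterenol. WT isoproterenol was above, and KO isoproterenol below, every saline library, with a difference of -4.75 ± 0.47 (adjusted p = 4.56e-05). Tesc, a calcium-binding regulator of sodium-proton exchange, was between 2.51 and 4.38 CPM in WT saline, between 9.74 and 17.7 in WT isoproterenol, between 2.94 and 9.71 in KO saline and between 0.262 and 1.83 in KO isoproterenol (difference -4.42 ± 0.73, adjusted p = 0.00158). Ttc25, a cilium gene, differed by -4.88 ± 0.95 (adjusted p = 0.00363). Cfap161, another cilium gene, held only 4 reads over the WT saline libraries, 64 over WT isoproterenol, 49 over KO saline and 10 over KO isoproterenol (adjusted p = 0.000638).

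The opposite reversal, a fall in WT and a rise in KO, included genes of glucose uptake and lipid droplets. Slc2a1, the insulin-independent glucose transporter GLUT1, was at 16.6, 16.5, 14.6 and 14 CPM in WT saline and 10.1, 11.5, 9.07 and 9.7 in WT isoproterenol. Slc2a1 in KO was at 14.7, 16.8, 13.4 and 14.9 with saline and 43.8, 86.5, 38.6 and 47.4 with isoproterenol. All 4 WT isoproterenol libraries were below WT saline and all 4 KO isoproterenol libraries above KO saline. The response was -0.61 ± 0.19 in WT and 1.79 ± 0.19 in KO, a difference of 2.40 ± 0.28 (adjusted p = 0.00016). Hilpda, a hypoxia-inducible inhibitor of the lipase ATGL, was at 15.3, 12.9, 11.7 and 7.51 CPM in WT saline and 5.88, 6.07, 4.93 and 6.06 in WT isoproterenol. Hilpda in KO was at 8.11, 10.1, 7.37 and 12 with saline and 14.9, 42.5, 34.8 and 38.5 with isoproterenol. Its difference was 2.72 ± 0.42 (adjusted p = 0.00101), again with no overlap between treatments in either genotype. Il18bp, the decoy that binds interleukin 18, was between 7.68 and 9.07 CPM in WT saline, between 5.22 and 6.44 in WT isoproterenol, between 7.15 and 9.13 in KO saline and between 22.5 and 37.8 in KO isoproterenol (difference 2.28 ± 0.23, adjusted p = 4.75e-05). C2, a complement protease, differed by 2.38 ± 0.45 (adjusted p = 0.00325), and Ptprn, a secretory-granule protein, by 3.03 ± 0.40 (adjusted p = 0.000466). Ceacam16 was called too (adjusted p = 0.000905) on 11, 3, 7 and 147 reads in WT saline, WT isoproterenol, KO saline and KO isoproterenol.

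**Figure D2:**
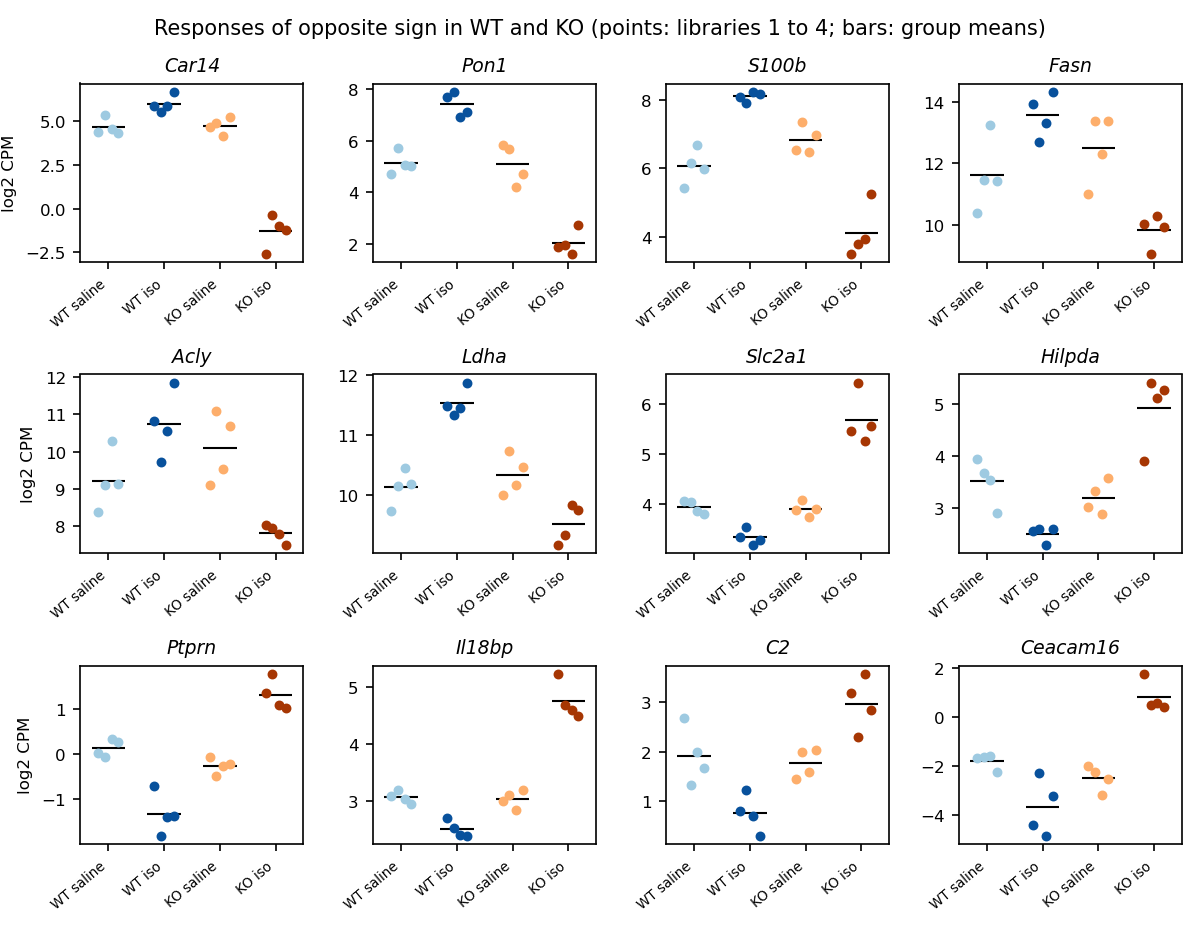
Log2 CPM of 12 genes with responses of opposite sign in the 4 groups, 1 point per library and a bar at each group mean. In the first 6 panels (Car14 to Ldha) WT isoproterenol lies above WT saline on average and KO isoproterenol below KO saline, and in the last 6 (Slc2a1 to Ceacam16) the order is the other way round.

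Among gained rises, the largest differences included genes of cystine uptake, protease inhibition and myeloid cells. Slc7a11, the cystine-glutamate exchanger that supplies glutathione synthesis, was at 1.19, 0.135, 0.233 and 0.291 CPM in WT saline and 0.235, 0.448, 0.103 and 0.035 in WT isoproterenol. Slc7a11 in KO was at 0.319, 0.291, 0.181 and 0.0574 with saline and 23.5, 99.7, 10.6 and 20 with isoproterenol. The lowest KO isoproterenol library was above every one of the other 12. Its response was -1.21 ± 0.89 in WT and 7.23 ± 0.89 in KO, a difference of 8.44 ± 1.25 (adjusted p = 0.000905). Slfn4, a myeloid gene of the Schlafen family, was at 2.25, 0.858, 0.698 and 0.789 CPM in WT saline and 1.74, 1.59, 4.24 and 1.37 in WT isoproterenol. Slfn4 in KO was at 0.956, 0.708, 1.05 and 2.35 with saline and 989, 221, 128 and 47.3 with isoproterenol. Its difference was 6.41 ± 1.01 (adjusted p = 0.00124), with KO isoproterenol 1 highest and KO isoproterenol 4 lowest within the group, and close copies of Slfn genes can share reads. Arg1, an arginine-degrading enzyme found in some activated macrophages, was between 0.132 and 2.47 CPM in WT saline, between 0.047 and 0.31 in WT isoproterenol, between 0.172 and 0.327 in KO saline and between 3.16 and 18.2 in KO isoproterenol (difference 6.68 ± 1.17, adjusted p = 0.00216).

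Reads of 3 more of the top gained genes were nearly confined to the KO isoproterenol group, so no fold is given for them. Serpina3m, a serine protease inhibitor with close paralogues that can share its reads, held 15, 6, 1 and 531 reads in WT saline, WT isoproterenol, KO saline and KO isoproterenol (adjusted p = 0.00124). Rhov, an atypical small GTPase, held 1, 2, 1 and 748 in the same order (adjusted p = 0.0033). Sprr1a, a cornified-envelope gene also induced in injured tissue, held 0, 1, 0 and 349 (adjusted p = 0.0012), and the 4 KO isoproterenol libraries were at 1.74, 14.2, 1.91 and 2.43 CPM.

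Gained falls included a cation transporter, a scavenger receptor and a prostaglandin synthase. Slc22a2, an organic cation transporter, was at 4.36, 8.17, 4.98 and 5.11 CPM in WT saline and 7.38, 5.26, 5 and 6.55 in WT isoproterenol. Slc22a2 in KO was at 4.28, 5.45, 6.49 and 5.92 with saline and 0.166, 0.216, 0.496 and 0.376 with isoproterenol. All 12 other libraries were at 4 CPM or above and no KO isoproterenol library reached 1 CPM; the difference was -4.38 ± 0.45 (adjusted p = 6.32e-05). Fcrls, a scavenger receptor known from tissue-resident macrophages, was at 8.16, 7.63, 7.86 and 10.6 CPM in WT saline and 17.2, 17.6, 15.3 and 16.1 in WT isoproterenol. Fcrls in KO was at 11.2, 11.4, 7.22 and 8.44 with saline and 0.737, 0.278, 0.862 and 0.226 with isoproterenol. WT isoproterenol lay above WT saline in all 4 libraries without a call (0.96 ± 0.35, adjusted p = 0.0758), and KO isoproterenol lay far below KO saline, while 22 of 23 macrophage markers rose there. The difference was -5.35 ± 0.50 (adjusted p = 3.07e-05). Ptgds, which makes prostaglandin D and carries lipophilic molecules, was between 14.7 and 23.1 CPM in WT saline, between 25.5 and 46 in WT isoproterenol, between 7.05 and 60.4 in KO saline and between 0.0714 and 2.68 in KO isoproterenol (difference -6.17 ± 1.17, adjusted p = 0.00313). For Ptgds too, all 4 WT isoproterenol libraries lay above WT saline without a call (1.03 ± 0.83, adjusted p = 0.44). Cabcoco1 (difference -4.60 ± 1.29) and the antisense transcript Plet1os (difference -4.40 ± 1.03) were called as well. Magel2, an imprinted gene, was called at adjusted p = 0.0337 but in 7 of 16 fits without 1 library (adjusted p up to 0.0729, without WT isoproterenol 4).

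Lost rises included 2 fatty acid elongases and a hormone precursor known from muscle. Elovl6, which elongates the products of fatty acid synthase, was at 119, 168, 392 and 249 CPM in WT saline and 989, 922, 1639.6 and 2205 in WT isoproterenol. Elovl6 in KO was at 223, 354, 307 and 312 with saline and 24.1, 153, 201 and 489 with isoproterenol. WT isoproterenol did not overlap WT saline, while in KO the 2 treatments overlapped; the response was 2.68 ± 0.66 in WT and -1.09 ± 0.66 in KO, a difference of -3.78 ± 0.93 (adjusted p = 0.011). Elovl3, the elongase most associated with brown fat recruitment, was at 0.75, 4.2, 4.42 and 7.26 CPM in WT saline and 274, 600.5, 599 and 927 in WT isoproterenol. Elovl3 in KO was at 67.2, 17, 99.1 and 15.7 with saline and 7.54, 203, 566 and 1683 with isoproterenol. Its WT rise was the largest of the 15350 genes (7.44 ± 1.25) and its KO response was 2.42 ± 1.25 without a call (adjusted p = 0.121), while every KO saline library was already above WT saline (difference 3.53, adjusted p = 0.569) and the KO isoproterenol libraries ran from below KO saline to above WT isoproterenol. The Elovl3 interaction of -5.02 ± 1.76 was called at adjusted p = 0.0492, and in only 2 of 16 fits without 1 library (adjusted p up to 0.104, without WT saline 1). Fndc5, the precursor of the hormone irisin, was at 8.16, 1.94, 3.02 and 10.8 CPM in WT saline and 43.3, 15, 37.4 and 43.4 in WT isoproterenol. Fndc5 in KO was at 1.31, 4.29, 2.36 and 8.21 with saline and 0.452, 1.2, 3.63 and 3.08 with isoproterenol. WT isoproterenol stood above the other 3 groups, and the difference was -3.79 ± 1.02 (adjusted p = 0.0165).

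Tinag, a basement membrane gene, was between 3.97 and 4.73 CPM in WT isoproterenol and at most 2.46 CPM in any other library (difference -3.96 ± 0.69, adjusted p = 0.00213). Ncan, a brain-type proteoglycan, differed by -4.25 ± 1.21 (adjusted p = 0.0207). Acot12, a cytosolic acetyl-CoA hydrolase, was called at adjusted p = 0.0405 but in 4 of 16 fits without 1 library (adjusted p up to 0.0789, without WT isoproterenol 4), and its KO saline libraries (between 1.21 and 5.04 CPM) were already above WT saline (between 0.14 and 0.374). The median of KO saline minus WT saline was 0.24 across the 228 lost rises and -0.25 across the 140 lost falls. The same WT saline libraries enter the rule that picks these genes, so the choice itself can give such shifts.

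The WT falls lost in KO that differed most included an immediate early gene and several genes with few reads. Egr1, an immediate early transcription factor, was at 46.4, 275, 46.7 and 321 CPM in WT saline, 18.3, 9.41, 9.35 and 9.07 in WT isoproterenol, 97.5, 337, 31.9 and 23.7 in KO saline and 44.8, 90.5, 65.9 and 45.6 in KO isoproterenol. All 4 WT isoproterenol libraries were below the other 12, whereas both saline groups spread widely. The difference of 3.16 ± 1.08 (adjusted p = 0.0442) was called in 5 of 16 fits without 1 library (adjusted p up to 0.0907, without KO saline 4). Spint1, a membrane protease inhibitor, was between 1.58 and 2.34 CPM in WT saline, between 0.204 and 0.448 in WT isoproterenol, between 0.958 and 2.5 in KO saline and between 1.38 and 3.31 in KO isoproterenol (difference 2.89 ± 0.54, adjusted p = 0.00302). Unc93a2 differed by 3.10 ± 0.83 (adjusted p = 0.0162). Lncenc1, Rimkla and Phyhip held 4, 4 and 3 reads over the WT isoproterenol libraries, against 88, 64 and 50 in WT saline (adjusted p = 0.00366, 0.0204 and 0.0113 for the interaction).

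**Figure D3:**
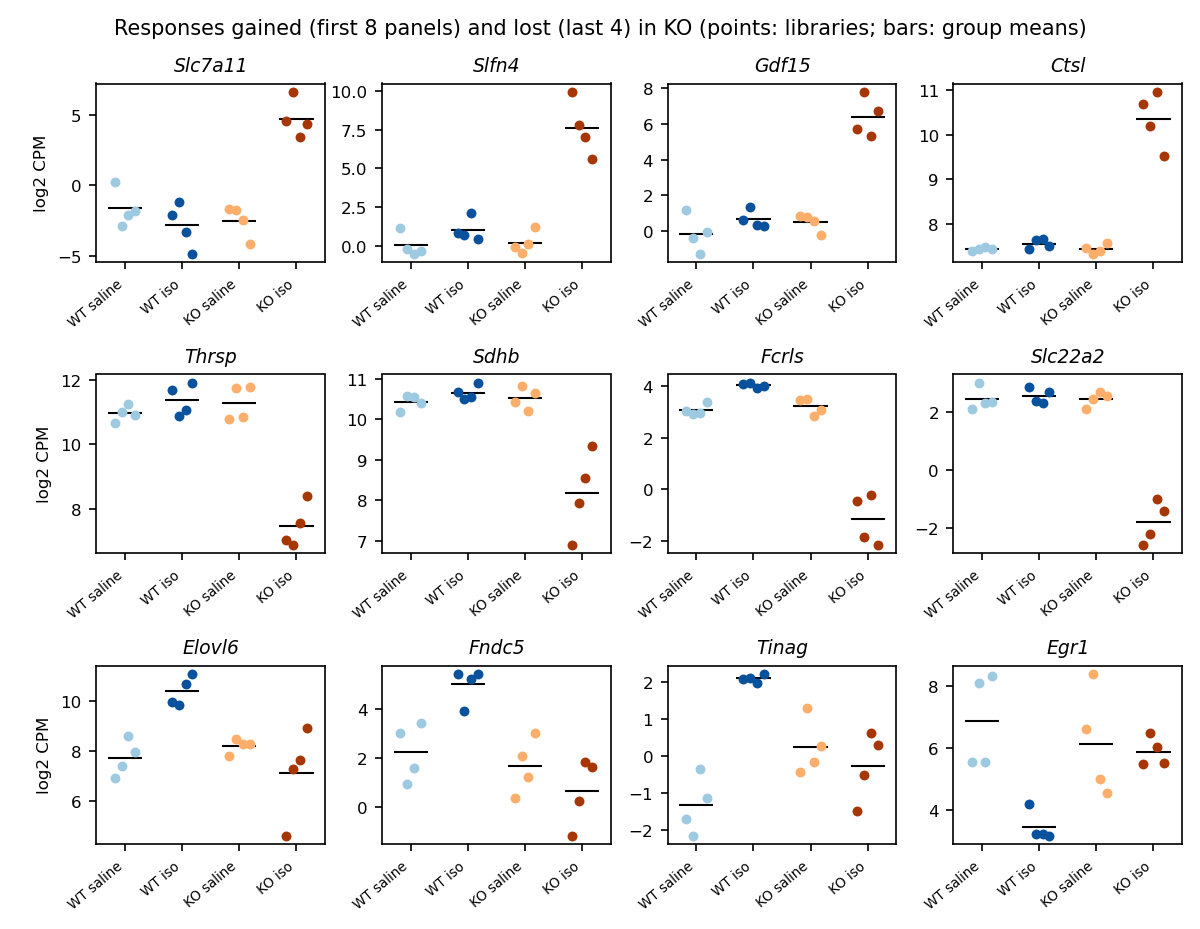
Log2 CPM of 8 genes with a gained response (Slc7a11 to Slc22a2) and 4 with a lost one (Elovl6 to Egr1) in the 4 groups, 1 point per library and a bar at each group mean. In the first 8 panels KO isoproterenol stands apart from the other groups, and in the last 4 WT isoproterenol differs from WT saline and KO isoproterenol does not lie apart from KO saline in the same way.

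The gene lists below are described by how many of their measured genes were called in the interaction, to be read against 10.9% higher and 13.8% lower among all genes, and by the median response of the list, beside medians of -0.02 in WT and -0.0021 in KO over all genes. Most genes of mitochondrial respiration fell in KO. For the nuclear-encoded subunits of the respiratory chain, the complexes that pass electrons to oxygen and pump protons, the interaction was lower for 43 of 44 and higher for 0, with a median response of 0.24 in WT and -1.77 in KO; the exception, Cycs (cytochrome c), was at -1.62 ± 0.62 (adjusted p = 0.0664). None of the 44 had a called response in WT and all 44 fell in KO. Sdhb, the iron-sulfur subunit of succinate dehydrogenase, was at 1162, 1517, 1493 and 1355 CPM in WT saline and 1645, 1447, 1510.3 and 1922 in WT isoproterenol. Sdhb in KO was at 1385, 1798, 1190.1 and 1615 with saline and 119, 245, 375 and 644 with isoproterenol. Its difference was -2.59 ± 0.52 (adjusted p = 0.0044), and the complex I subunits Ndufs8, Ndufb7 and Ndufs4 differed by -2.29, -1.83 and -1.88 (adjusted p = 0.00224, 0.00465 and 0.00522).

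The 4 KO isoproterenol libraries differed in how far this list fell: its score was -2.64, -1.56, -0.94 and -0.21, against 0.19 to 0.71 in all other libraries. The macrophage score was 3.52, 1.86, 2.95 and 1.0 in the same 4 libraries, against at most 0.08 elsewhere, and its part in the fall of the mitochondrial, lipid and adipocyte lists was not tested. Leaving out KO isoproterenol 1 left 44 of 44 subunits called, and the smallest count over the fits without 1 library was 36, without WT isoproterenol 4. ATP synthase, which makes ATP from the proton gradient, was lower for 9 of 15 (median 0.24 in WT and -1.59 in KO). Among them were Atp5e (-1.83), Atp5k (-2.22), Atp5j2 (-2.09) and Atp5c1 (-1.68). In KO 12 of the 15 had a called fall and 2 a called rise, and 1 was higher in the interaction when scaled by read totals. The tricarboxylic acid cycle and its entry enzymes were lower for 14 of 18 (median 0.20 in WT and -2.12 in KO), led by Idh2 (-2.37, adjusted p = 0.00223) and Fh1 (-2.31, adjusted p = 0.00909). Without WT isoproterenol 4 or WT saline 1 the count for the cycle was 9.

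Mitochondrial ribosome proteins, which translate the few proteins encoded by mitochondrial DNA, were lower for 27 of 28, with a median response of 0.34 in WT and -0.87 in KO. Here 22 responses were gained falls, 3 were lost rises and Mrpl1 reversed, since 4 of the 28 had a called rise in WT. The list score as a whole was higher in WT isoproterenol (0.36 to 0.56) than in WT saline (-0.03 to 0.17), without overlap. Mrpl20, of the large subunit, was at 70.3, 69.2, 55.5 and 57.6 CPM in WT saline and 182, 174, 159 and 170.4 in WT isoproterenol. Mrpl20 in KO was at 66.9, 80, 80.3 and 97.1 with saline and 47.4, 71.3, 89.5 and 113 with isoproterenol. All 4 WT isoproterenol libraries were above all others, and the KO isoproterenol libraries lay on both sides of KO saline, a difference of -1.52 ± 0.29 (adjusted p = 0.00311).

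The 150 bases before the transcript start are shown for the 3 called respiratory chain or mitochondrial ribosome genes with the smallest adjusted p that hold a site for NRF1, an activator of genes for mitochondrial proteins (GCGCANGCG, in capitals, on either strand), as examples picked for holding it. Sequences are from RefSeq (GRCm38.p6) and read 5′ to 3′ towards the gene. They are Mrpl45 at chr11:97315566-97315715 (plus strand), Ndufa8, of complex I, at chr2:36049339-36049488 (minus strand) and Mrpl12 at chr11:120484487-120484636 (plus strand).
Mrpl45: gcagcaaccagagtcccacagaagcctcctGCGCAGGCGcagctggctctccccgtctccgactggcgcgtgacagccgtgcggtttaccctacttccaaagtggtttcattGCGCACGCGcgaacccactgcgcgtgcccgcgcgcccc
Ndufa8: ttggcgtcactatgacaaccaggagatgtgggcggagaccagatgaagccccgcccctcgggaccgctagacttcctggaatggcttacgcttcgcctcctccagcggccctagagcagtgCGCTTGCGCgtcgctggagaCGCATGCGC
Mrpl12: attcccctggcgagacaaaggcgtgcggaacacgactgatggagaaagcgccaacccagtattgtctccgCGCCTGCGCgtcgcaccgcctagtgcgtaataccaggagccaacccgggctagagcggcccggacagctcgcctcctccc

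Their interactions were -1.05 ± 0.24, -1.77 ± 0.41 and -1.62 ± 0.39 (adjusted p = 0.00788, 0.00809 and 0.0101). Of 11244 genes with a RefSeq window of 300 bases (250 before the start and 50 after), the NRF1 site was in 12.9% of all, 6 of 22 of the mitochondrial ribosome (27.3%), 8 of 34 of the respiratory chain (23.5%), 16.6% of gained falls and 7.55% of gained rises, and also in 16.6% of the falls that both genotypes shared. Among lists that rose in KO, the NRF1 site was in 3 of 18 lysosomal genes (16.7%). It was in 0 of 22 interferon-response genes and 0 of 16 genes induced by NRF2, a list described below. The CCAAT box (CCAAT) was in 38.3% of all windows, 41.7% of gained falls and 35.5% of gained rises. The ERR response element (TCAAGGTCA) was in 0.276%, 0.354% and 0.472%, in the same order. The 6 motifs were chosen after the gene results were known, were searched on both strands, and a match is a description of letters, not a bound site.

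Fatty acid uptake and oxidation was lower for 14 of 32 and higher for 1, with a median response of 0.48 in WT and -1.20 in KO. The list score was -2.69, -0.98, -0.36 and 0.68 in the KO isoproterenol libraries. It was 0.20 to 0.31 in KO saline and 0.42 to 0.75 in WT isoproterenol, so KO isoproterenol 4 lay above KO saline. Acaa2 (-3.0), Echs1 (-2.48) and Etfb (-2.40), enzymes and an electron carrier of beta-oxidation, gained a fall, and Acsl5, which activates fatty acids, lost its WT rise (-2.51); the whole list had 9 calls without WT isoproterenol 4 or WT saline 1 and 23 without KO isoproterenol 4. With precision weights, which called 20.4% of all genes in either direction, 5 of the 32 were called.

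The 1 member that went the other way was Cpt1a, the non-muscle form of the enzyme that admits fatty acids to mitochondria. It was at 29.5, 31, 27.2 and 34.6 CPM in WT saline and 36.3, 48.3, 47.7 and 36.5 in WT isoproterenol. Cpt1a in KO was at 32.5, 22, 44.8 and 26.4 with saline and 132, 232, 147 and 218 with isoproterenol. Every KO isoproterenol library was above all others by more than 2-fold, and the difference was 2.09 ± 0.31 (adjusted p = 0.000905). Cpt1b, the muscle and brown fat form, had a WT response of -0.02 ± 0.75, a KO response of -1.98 ± 0.75 and no call in the interaction (adjusted p = 0.189).

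Genes of lipogenesis and triglyceride synthesis were lower for 14 of 23 and higher for 0, with a median response of 0.66 in WT and -1.57 in KO. Fasn, fatty acid synthase, was at 1325, 2803, 9889 and 2758 CPM in WT saline and 15722, 6711, 10169.5 and 20894 in WT isoproterenol. Fasn in KO was at 2029, 10684, 5066 and 10672 with saline and 1033, 529.7, 1237 and 969.9 with isoproterenol. WT saline 3 lay within the WT isoproterenol range, and the 4 KO isoproterenol libraries were alike and below all others. The response was 1.95 ± 0.63 in WT (adjusted p = 0.0462) and -2.70 ± 0.63 in KO (adjusted p = 0.00264), a reversal with a difference of -4.65 ± 0.89 (adjusted p = 0.0033). Acly, which makes the acetyl-CoA for it, reversed as well (-3.80 ± 0.70, adjusted p = 0.00279). Thrsp, a regulator of lipogenesis, was at 1636, 2069.7, 2461 and 1936 CPM in WT saline and 3322, 1878, 2133 and 3875 in WT isoproterenol. Thrsp in KO was at 1780.2, 3441, 1842 and 3538 with saline and 129.9, 118, 188 and 339 with isoproterenol. Thrsp had no called WT response (0.42 ± 0.36) and fell in KO (-3.83 ± 0.36), a difference of -4.25 ± 0.51 (adjusted p = 0.000213). Tkt, of the pentose phosphate pathway, followed at -3.33 ± 0.55 (adjusted p = 0.00154).

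Glycolysis and glucose uptake was lower for 9 of 23 and higher for 2 (17 calls in all without KO isoproterenol 4). Ldha, which makes lactate, was between 855 and 1401 CPM in WT saline, between 2594 and 3771 in WT isoproterenol, between 1033 and 1711 in KO saline and between 579 and 919 in KO isoproterenol, and reversed (-2.23 ± 0.35, adjusted p = 0.00111). The glycolytic enzymes Eno1 (-2.27) and Pgk1 (-1.75) also differed. Among the glucose carriers, Slc2a4, the insulin-regulated GLUT4, was between 507 and 714 CPM in WT saline, between 413 and 755 in WT isoproterenol, between 500.4 and 875 in KO saline and between 38.7 and 179.7 in KO isoproterenol (difference -2.75 ± 0.60, adjusted p = 0.00603), while the 2 members that went up were the carriers Slc2a1 and Slc2a3 (1.53 ± 0.32, adjusted p = 0.00472). Cholesterol synthesis was lower for 4 of 22 (Tm7sf2, Mvk, Nsdhl and Sc5d) and higher for 1. The lower count was 2 when scaled by read totals, and calls in either direction numbered 2 without WT isoproterenol 4 or WT saline 1 and 3 without KO saline 2, KO saline 4 or WT saline 4. Of 18 genes of lipolysis and lipid droplets, Plin3 and Cideb, coats of the droplet, were lower, but not when scaled by read totals (adjusted p = 0.0854 and 0.0521), and Hilpda was higher; calls numbered 1 without WT isoproterenol 3 or 4 and 9 without KO isoproterenol 4.

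The thermogenic programme, the genes that mark active brown fat, was lower for 9 of 30, with 7 gained falls and 2 lost rises. Acot11, an acyl-CoA hydrolase, was between 63.6 and 197 CPM in WT saline, between 187 and 671 in WT isoproterenol, between 139 and 251 in KO saline and between 12.5 and 102 in KO isoproterenol (difference -3.98 ± 0.76, adjusted p = 0.0032). Esrra, a nuclear receptor that drives mitochondrial genes, was between 220.3 and 264 CPM in WT saline, between 268 and 354 in WT isoproterenol, between 224 and 294 in KO saline and between 49.2 and 158 in KO isoproterenol (difference -1.95 ± 0.37, adjusted p = 0.00325), and Prdm16, a determinant of brown fat identity, differed by -1.32 ± 0.30 (adjusted p = 0.00763). Letmd1, a mitochondrial protein needed for brown fat heat production, differed by -3.42 ± 0.84 (adjusted p = 0.0108). The 21 without a call included Ppargc1a (-0.53 ± 1.37, adjusted p = 0.807), Dio2 (-2.93 ± 1.27, adjusted p = 0.101), Cidea (-2.68 ± 1.32, adjusted p = 0.148) and Fgf21 (-0.26 ± 1.67, adjusted p = 0.924). The score of this list was -3.59, -0.66, -0.30 and 0.84 in the KO isoproterenol libraries. It was 0.11 to 0.40 in KO saline and 0.42 to 1.15 in WT isoproterenol. KO isoproterenol 4 thus lay above KO saline and within the WT isoproterenol range. The count of calls ranged from 7 (without KO isoproterenol 2) to 22 (without KO isoproterenol 4) over the fits without 1 library, and was 5 with precision weights.

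Of 19 genes of heat production that does not use UCP1, such as futile cycles of creatine, calcium or lipid, 6 were lower and 2 higher. Pm20d1, which makes N-acyl amino acids, was between 47.6 and 85.6 CPM in WT saline, between 18.8 and 44.2 in WT isoproterenol, between 68.1 and 80.8 in KO saline and between 1.07 and 9.45 in KO isoproterenol (difference -3.56 ± 0.65, adjusted p = 0.00265), Ckb, a creatine kinase, differed by -1.71 ± 0.42 (adjusted p = 0.0111) and Gpd2, of the glycerol phosphate shuttle, by -3.24 ± 0.84 (adjusted p = 0.0139). Ucp2, a UCP1 relative found in many cells including macrophages, rose in both genotypes and further in KO (1.12 ± 0.32, adjusted p = 0.021). Slc6a8, the creatine transporter, was between 77.6 and 98.7 CPM in WT saline, between 29.6 and 37.2 in WT isoproterenol, between 70.6 and 111 in KO saline and between 60.6 and 141 in KO isoproterenol, a lost fall (1.53 ± 0.29, adjusted p = 0.00316). Adrenergic and cyclic AMP signalling was lower for 3 of 28, a share close to the 13.8% of all genes: Prkaca (-1.34), Pde4a (-1.68) and Atf2 (-0.88). It had 5 calls without KO isoproterenol 1 and 9 without KO isoproterenol 4. The circadian clock list was lower for 5 of 19, among them Hlf (-2.75) and Per3 (-1.96).

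Secreted factors moved in both directions, 7 lower and 3 higher of 24. Gdf15, a stress-induced hormone of the TGF-beta family, was at 2.25, 0.767, 0.419 and 0.955 CPM in WT saline and 1.55, 2.57, 1.28 and 1.23 in WT isoproterenol. Gdf15 in KO was at 1.81, 1.71, 1.49 and 0.862 with saline and 52.7, 222, 40.3 and 104 with isoproterenol. Every KO isoproterenol library was above all 12 others, and the difference was 5.10 ± 0.75 (adjusted p = 0.000905). Metrnl, an adipose and muscle hormone, rose in KO as well (2.14 ± 0.63, adjusted p = 0.0231). Il6, the inflammatory cytokine, held 1, 1, 6 and 170 reads in WT saline, WT isoproterenol, KO saline and KO isoproterenol (adjusted p = 0.0139). Rbp4, the retinol carrier, reversed from a rise in WT to a fall in KO (-2.16 ± 0.36, adjusted p = 0.00161), and Vegfb, a lipid-uptake and vessel factor, fell in both genotypes and further in KO (-1.87 ± 0.40, adjusted p = 0.00592).

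Gdf10, which encodes BMP3b, the factor named in the title of the series, was at 9.92, 7.81, 13.5 and 17.5 CPM in WT saline and 34.8, 23.2, 23.1 and 29.4 in WT isoproterenol. Gdf10 in KO was at 10.5, 8.45, 11.1 and 12.3 with saline and 25.8, 7.2, 12.8 and 4.74 with isoproterenol. WT isoproterenol lay above all WT saline libraries, KO isoproterenol 1 lay within the WT isoproterenol range, and KO isoproterenol 2 and 4 lay below KO saline. Its response was 1.23 ± 0.40 in WT (adjusted p = 0.0459) and -0.03 ± 0.40 in KO (adjusted p = 0.957), and the difference, -1.26 ± 0.56, was not called (adjusted p = 0.111). It was called in 1 of the 16 fits without 1 library, that without KO isoproterenol 1 (-1.70, adjusted p = 0.00963). In the others its adjusted p ran up to 0.195 (without WT saline 2).

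**Figure D4:**
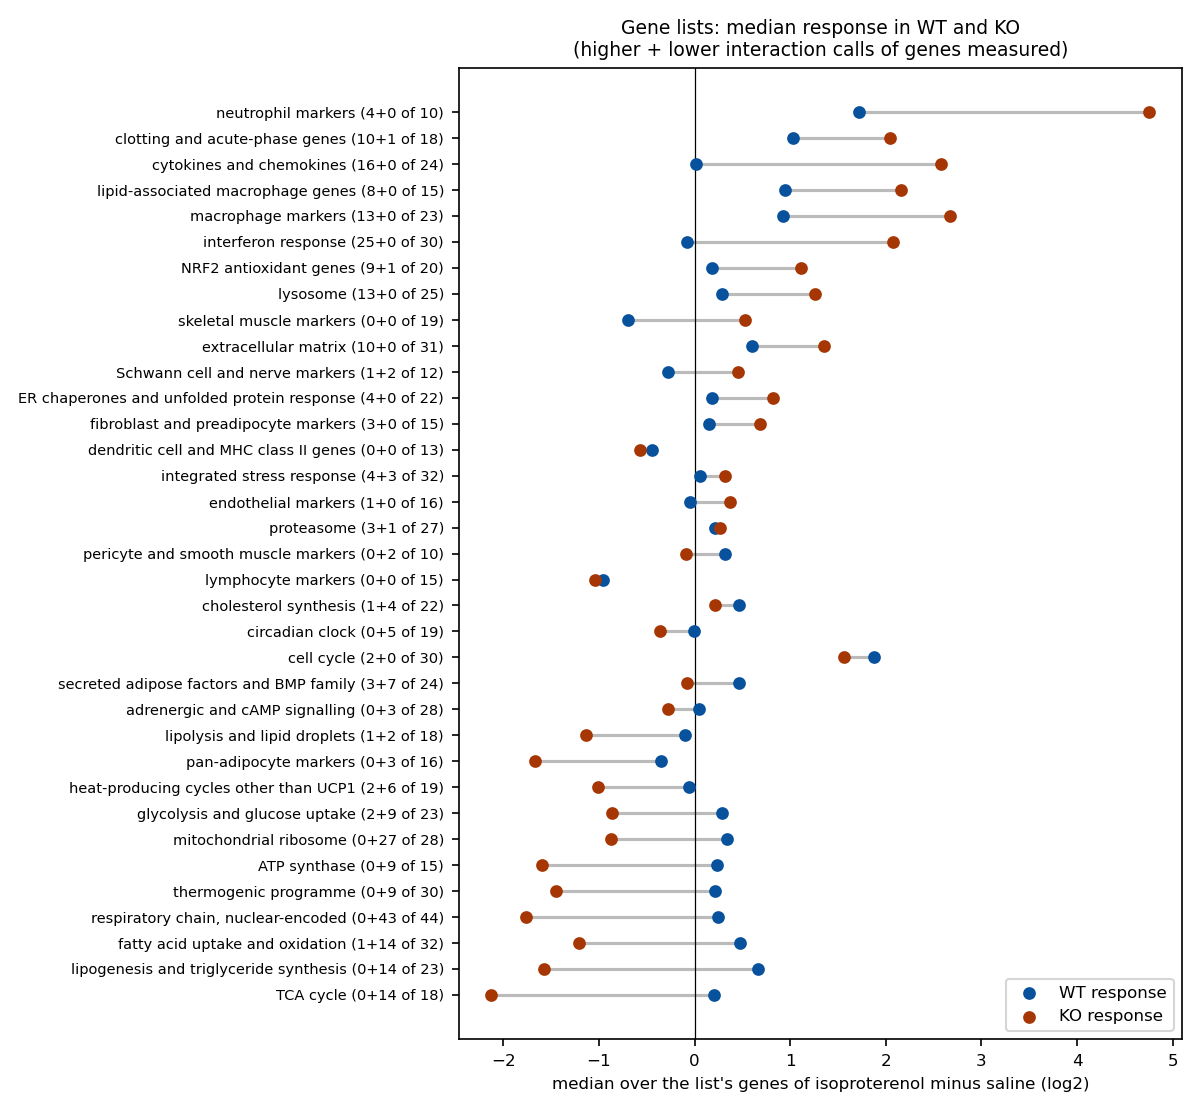
Median isoproterenol response of each gene list with at least 5 measured genes, in WT (blue) and KO (brown), as isoproterenol minus saline on the log2 scale, with the number of interaction calls beside each name. The mitochondrial and lipid lists at the bottom fall in KO and are near 0 or above in WT, and the immune lists at the top rise further in KO.

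Interferon-response genes, which defend against viruses and answer interferon or nucleic acid sensors, were higher for 25 of 30 and lower for 0. Their median response was -0.08 in WT and 2.08 in KO, none had a called WT response and 28 rose in KO. Irf7, the transcription factor that amplifies interferon production, was at 49.9, 23.9, 15.9 and 19 CPM in WT saline and 18.3, 21.2, 18.5 and 10.1 in WT isoproterenol. Irf7 in KO was at 22.3, 15.9, 59.9 and 96 with saline and 684, 306, 286 and 365 with isoproterenol. KO saline 3 and KO saline 4 were above the other saline libraries, and all 4 KO isoproterenol libraries were above both. The difference for Irf7 was 3.92 ± 0.71 (adjusted p = 0.00261), for Ifih1, a sensor of double-stranded RNA, 1.85 ± 0.38 (adjusted p = 0.00477), and for Mx1 and Oasl2, antiviral effectors, 4.48 ± 0.99 and 2.91 ± 0.66 (adjusted p = 0.00666 and 0.00739). The list score was 1.22 to 2.84 in KO isoproterenol and -1.25 to 0.39 elsewhere; the count was 21 without KO isoproterenol 1, 14 without WT isoproterenol 4 and 15 without WT saline 1, KO saline 1 or KO saline 2. KO saline 3 and KO saline 4, at 0.32 and 0.39, had the highest scores among the 12 other libraries.

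The same stretch is shown for the 3 called interferon genes with the smallest adjusted p that hold an interferon-stimulated response element there (GAAANNGAA, in capitals, on either strand), again as examples picked for holding it. Build and orientation are those of the mitochondrial genes. Ifih1 lies at chr2:62646256-62646405 (minus strand), Oas1a, whose close copies can share its reads, at chr5:120907526-120907675 (minus strand), and Bst2, which tethers budding virus, at chr8:71537473-71537622 (minus strand). Matches overlap in Oas1a and Bst2.
Ifih1: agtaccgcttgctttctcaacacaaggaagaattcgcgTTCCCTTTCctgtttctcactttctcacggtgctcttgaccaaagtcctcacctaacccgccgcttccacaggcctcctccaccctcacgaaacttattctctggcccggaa
Oas1a: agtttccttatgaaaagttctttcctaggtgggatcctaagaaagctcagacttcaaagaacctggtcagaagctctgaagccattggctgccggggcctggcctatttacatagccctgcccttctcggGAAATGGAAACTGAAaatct
Bst2: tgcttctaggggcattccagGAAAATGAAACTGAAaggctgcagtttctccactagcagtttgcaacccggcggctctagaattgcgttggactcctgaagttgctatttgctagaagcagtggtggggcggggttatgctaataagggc

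Oas1a differed by 2.79 ± 0.72 and Bst2 by 2.07 ± 0.55 (adjusted p = 0.0135 and 0.0161). Of the 11244 windows, 7.44% held the element, against 14 of 22 of the interferon list (63.6%). Its share was 12.5% of gained rises, 6.11% of gained falls, 3.95% of lost rises and 11.3% of lost falls. It was also in 5 of 34 of the respiratory chain (14.7%) and 3 of 22 of the mitochondrial ribosome (13.6%), lists that fell in KO. The AP-1 site (TGANTCA) was in 5.24% of all windows, 8.5% of gained rises and 4.16% of gained falls, and the cyclic AMP response element (TGACGTCA) in 3.12%, 2.08% and 3.45%.

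Cytokines and chemokines were higher for 16 of 24 and lower for 0, with 8 called when precision weights were used. Ccl7, which attracts monocytes, was at 0.926, 1.04, 1.26 and 1.04 CPM in WT saline and 3.15, 5.83, 1.35 and 1.58 in WT isoproterenol. Ccl7 in KO was at 2.02, 1.87, 2 and 1.9 with saline and 549.9, 119, 111 and 28.7 with isoproterenol. KO isoproterenol 1 was highest by far, and the difference was 4.71 ± 0.90 (adjusted p = 0.0033). Cxcl1, which attracts neutrophils, differed by 4.19 ± 0.70 (adjusted p = 0.00165), Ccl6 by 3.09 ± 0.58 on top of a WT rise (adjusted p = 0.00308), and Cxcl14, which brown adipocytes are known to release, by 2.0 ± 0.30 (adjusted p = 0.000984).

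Macrophage markers were higher for 13 of 23 and lower for 0, with a median response of 0.93 in WT and 2.67 in KO, and 22 of the 23 rose in KO. Cd68, a lysosomal protein of macrophages, was between 9.44 and 32.3 CPM in WT saline, between 29.5 and 65 in WT isoproterenol, between 15.6 and 28.6 in KO saline and between 192 and 1038 in KO isoproterenol (difference 3.11 ± 0.66, adjusted p = 0.0053). Fcgr1 (4.31), Msr1 (3.87) and Cd14 (1.97), an antibody receptor, a scavenger receptor and the endotoxin co-receptor, were called too. Not called were 10, among them the defining markers Csf1r (1.13 ± 0.66, adjusted p = 0.223) and C1qa (0.58 ± 0.46, adjusted p = 0.368) and the resident-type markers Mrc1 (0.62 ± 0.58, adjusted p = 0.457) and Cd163 (0.52 ± 0.70, adjusted p = 0.612). Summed over the list, macrophage markers were between 348 and 942 CPM in WT saline, between 748 and 1381 in WT isoproterenol, between 488 and 859 in KO saline and between 1940.1 and 16732 in KO isoproterenol, and 0 of its 23 members were at 0 reads in any library. The list had 20 calls without KO isoproterenol 4 and 8 with precision weights.

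Genes of lipid-associated macrophages were higher for 8 of 15 (5 without KO isoproterenol 3, KO saline 1 or 2, WT isoproterenol 3 or 4, or WT saline 1 or 2). Gpnmb, a glycoprotein of lipid-laden phagocytes, was at 93.4, 5.28, 11.1 and 8.34 CPM in WT saline and 24.5, 41, 14.5 and 11.2 in WT isoproterenol. Gpnmb in KO was at 10.6, 10.9, 31.5 and 10.5 with saline and 3576, 522, 1244 and 253 with isoproterenol. WT saline 1 was above its group, all 4 KO isoproterenol libraries were above it, and the difference was 5.51 ± 1.21 (adjusted p = 0.00622). Lgals3, a lectin of activated macrophages, differed by 4.15 ± 0.98 (adjusted p = 0.00894). Of 10 neutrophil markers 4 were higher: S100a8 (3.53), S100a9 (2.90) and Lcn2 (3.38), which also rose in WT, and Mmp8, with 8, 33, 6 and 3149 reads in WT saline, WT isoproterenol, KO saline and KO isoproterenol. By limma, 0 of 15 lymphocyte markers and 0 of 13 genes of dendritic cells and MHC class II were called; the unadjusted p was under 0.05 for 0 and 1, precision weights called 0 and 0, and without KO isoproterenol 4 the second list had 2 calls. Clotting and acute-phase genes were higher for 10 of 18 and lower for 1. Serpina3n, a protease inhibitor with close paralogues, was between 8.43 and 12.2 CPM in WT saline, between 12.4 and 30.6 in WT isoproterenol, between 5.77 and 15 in KO saline and between 183 and 440.2 in KO isoproterenol (difference 3.99 ± 0.49, adjusted p = 0.000272), Saa3 differed by 4.89 ± 0.91 (adjusted p = 0.00286), and Itih4, an inhibitor of the same phase, lost its WT rise (-1.87 ± 0.59, adjusted p = 0.0326).

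Lysosomal genes were higher for 13 of 25 and lower for 0. Ctsl, the protease cathepsin L, was at 168, 172, 179.5 and 174 CPM in WT saline and 172, 199, 201 and 182 in WT isoproterenol. Ctsl in KO was at 176, 161, 168 and 189 with saline and 1664, 1173, 2006 and 733 with isoproterenol. The 12 other libraries lay within a narrow band and the lowest KO isoproterenol library was more than 3-fold above it, a difference of 2.79 ± 0.32 (adjusted p = 0.00016). Gla, which degrades glycolipids, was between 5.91 and 8.01 CPM in WT saline, between 6.04 and 9.66 in WT isoproterenol, between 6.95 and 9.1 in KO saline and between 50.2 and 153 in KO isoproterenol, with no called WT response (difference 3.46 ± 0.41, adjusted p = 0.000209).

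Genes induced by NRF2, a transcription factor activated by oxidants and electrophiles, were higher for 9 of 20 and lower for 1. Hmox1, which degrades haem, was at 23.2, 13.2, 15.1 and 14.1 CPM in WT saline and 34.9, 46.7, 28.3 and 23.3 in WT isoproterenol. Hmox1 in KO was at 19.4, 12.7, 22.7 and 14.6 with saline and 411, 1148, 444 and 461 with isoproterenol. It rose in both genotypes, with the 4 KO isoproterenol libraries far above all others, and the difference was 4.03 ± 0.44 (adjusted p = 0.000109). Gsr, which regenerates glutathione, and Sqstm1, an autophagy adaptor, differed by 1.75 ± 0.33 and 1.74 ± 0.37 (adjusted p = 0.00313 and 0.0056), and Gsta4 went against the list (-2.73 ± 0.80, adjusted p = 0.0233). The score of this list was highest in KO isoproterenol 2 (1.87) and lowest in KO isoproterenol 1 (0.32), unlike the macrophage score, which was highest in KO isoproterenol 1 (3.52) and 1.86 in KO isoproterenol 2.

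Of 32 genes of the integrated stress response, 4 were higher and 3 lower. The share called in either direction, 21.9%, was close to the 24.7% of all genes. Atf3 (4.27 ± 0.97), Gdf15, Slc7a11 and Chac1 (2.93 ± 0.94) gained a rise, whereas the amino acid synthesis genes Asns (-1.76 ± 0.47) and Psph (-1.85 ± 0.35) lost their WT rise and Atf5 fell (-1.47 ± 0.48). Scaled by read totals, 9 were higher and 2 lower, with Atf5 at adjusted p = 0.0541. Chaperones of the endoplasmic reticulum were higher for 4 of 22, 10 when scaled by read totals, 15 without KO isoproterenol 4 and 2 without WT isoproterenol 3, WT isoproterenol 4 or WT saline 1; P4hb (1.21), Pdia4 (1.52), Sdf2l1 (2.30) and Xbp1 (1.21) were called. Of 27 proteasome genes, Psmc1 (0.58), Psma5 (0.76) and Psmd2 (0.59) were higher and Psmc4 (-0.61) lower, 7 higher and 0 lower when scaled by read totals, and the list had 1 or 2 calls without any one of 11 libraries (all but KO saline 3 and the 4 of KO isoproterenol).

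**Figure D5:**
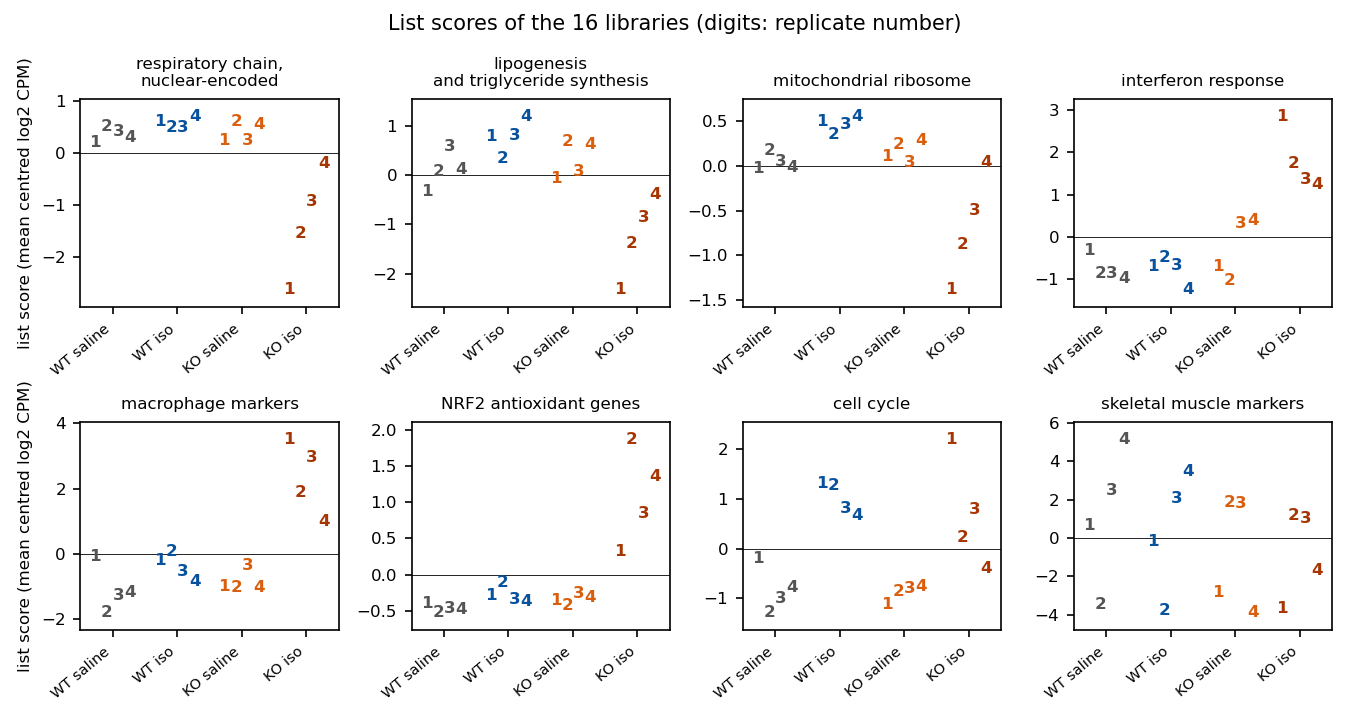
Score of 8 gene lists (mean of centred log2 CPM) in each of the 16 libraries, with the digit giving the replicate number. Respiratory chain, lipogenesis and mitochondrial ribosome scores fall and interferon and macrophage scores rise in KO isoproterenol to an extent that differs among its 4 libraries, the cell cycle score rises in both genotypes, and muscle scores vary within every group.

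Extracellular matrix genes were higher for 10 of 31. Calls numbered 6 with precision weights, 4 without KO saline 4, WT isoproterenol 4 or WT saline 1, 5 without WT isoproterenol 3 and 6 without KO saline 1, WT saline 3 or WT saline 4. Thbs2 (2.35), an anti-angiogenic matrix protein, and Mmp13 (4.06), a collagenase, gained a rise, while Lox (1.25), a collagen crosslinker, and Timp1 (2.77), a metalloprotease inhibitor, rose in WT and further in KO. Fibroblast and preadipocyte markers were higher for 3 of 15: Ly6a (1.66), Dcn (1.52) and Pdgfrb (0.77). Endothelial markers were higher for Plvap alone of 16 (1.69 ± 0.27, adjusted p = 0.00132), pericyte markers lower for Cspg4 (-1.62) and Rgs5 (-0.81) of 10, and pan-adipocyte markers lower for Cebpa (-1.56), Slc2a4 and Car3 (-2.33) of 16. Without KO isoproterenol 4 the pan-adipocyte list had 7 calls and without KO isoproterenol 3 it had 5, and the pericyte list had 1 in 10 of the fits without 1 library. The pan-adipocyte list had a median response of -0.35 in WT and -1.67 in KO, and its score was -2.04, -1.42, -0.15 and -0.28 in the KO isoproterenol libraries against -0.15 to 0.79 elsewhere. Of 12 Schwann cell and nerve markers, S100b and Ntrk3 (-3.60) were lower and 1 was higher, 2 and 3 when scaled by read totals, and the list median of the interaction was 0.70. Of 3 keratinocyte markers measured, Krt10 was lower (-1.39) and Lor higher, with Lor at 2.69, 283, 10.9 and 10.3 CPM in KO isoproterenol.

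Cell division genes rose in both genotypes. Of 30 cell cycle genes, 22 rose in WT and 24 in KO (medians 1.88 in WT and 1.57 in KO), and the interaction was called for 2, Pcna (1.10 ± 0.37, adjusted p = 0.0412) and Cdt1 (1.99 ± 0.58, adjusted p = 0.023), both replication genes that rose in KO. Top2a, which untangles DNA, had responses of 3.28 ± 0.70 and 2.02 ± 0.70, with a difference of -1.26 ± 0.99 (95% interval -3.37 to 0.85), an interval too wide to show that they responded alike. Pcna was called in 2 of 16 fits without 1 library (adjusted p up to 0.0813, without WT isoproterenol 4), and without KO isoproterenol 1 the list had 1 higher and 3 lower calls. Without WT isoproterenol 4 the list had 0 calls, with Cdt1 at adjusted p = 0.0529; it had 4 without KO isoproterenol 4, 1 in each of 12 other fits without 1 library and 1 with precision weights. The list median of the interaction was -0.38, and -0.08 when scaled by read totals.

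For 618 genes, 228 rising and 390 falling, both responses were called in the same direction and the 95% interval of their difference lay within 1 on either side of 0. Upp1, which degrades uridine, was at 3.31, 1.85, 2.09 and 1.78 CPM in WT saline and 10.1, 11, 10.6 and 8.44 in WT isoproterenol. Upp1 in KO was at 3.79, 2.87, 4.54 and 3.39 with saline and 15.4, 21.7, 13.3 and 17.3 with isoproterenol. It rose by 2.19 ± 0.22 in WT and 2.21 ± 0.22 in KO, a difference of 0.02 ± 0.31 (95% interval -0.64 to 0.69). Eln, elastin, and Loxl1, which crosslinks it, had differences of -0.03 ± 0.35 and 0.05 ± 0.32. Among shared falls, Ahcyl2, a regulator of bicarbonate transport, differed by -0.01 ± 0.26 between responses of -2.06 ± 0.18 in WT and -2.07 ± 0.18 in KO; Hspa12a and Col23a1 differed by -0.12 ± 0.32 and -0.22 ± 0.33. The sign of these 6 small differences turned in 1 or more of the other fits.

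Responses larger in KO included Chil3, a macrophage lectin that was between 0.22 and 1.62 CPM in WT saline, between 4.1 and 11.2 in WT isoproterenol, between 0.531 and 2.01 in KO saline and between 59.6 and 1357 in KO isoproterenol (difference 4.96 ± 1.10, adjusted p = 0.0065), and Lcn2, an iron-binding acute-phase protein (3.38 ± 0.65, adjusted p = 0.0035). Lctl, a klotho-family protein of brown fat, was at 61.6, 79.5, 68.8 and 82.5 CPM in WT saline and 10.3, 6.48, 7.14 and 8.79 in WT isoproterenol. Lctl in KO was at 65.7, 91.9, 77.9 and 76.6 with saline and 2.16, 2.38, 2.69 and 1.58 with isoproterenol. Each treated library was below its saline group and KO isoproterenol was below WT isoproterenol without overlap, a difference of -1.99 ± 0.26 (adjusted p = 0.000447). Fras1, a basement membrane protein, and Rab17, a trafficking GTPase, fell further in KO too (-3.29 ± 0.85 and -2.60 ± 0.80), and Fam110c held 2, 44, 5 and 1036 reads in WT saline, WT isoproterenol, KO saline and KO isoproterenol. Smaller in KO were the fall of Aqp1, a water channel (1.15 ± 0.37, adjusted p = 0.0352, called in 8 of 16 fits without 1 library, adjusted p up to 0.0785 without WT isoproterenol 4), that of Shisa9 (87, 4, 55 and 23 reads), and the rise of Col10a1 (3, 247, 11 and 192 reads). The histone genes Hist1h1d (-2.96 ± 0.90) and Hist1h3d (-2.58 ± 0.77) also rose less in KO, without a call when 1 weight per group was used (adjusted p = 0.0868 and 0.0794); near-identical copies of histone genes can share their reads.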

How the data were processed

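RNA of interscapular brown fat was sequenced as single 75 bp reads after poly(A) selection with a stranded kit, per the labels' protocols, and the submitters' processing notes name STAR, limma and the genome build mm39, with versions and annotation not given in the sources used here. The deposited files, 1 per library, hold log2 CPM that the authors computed with 0.5 reads added to each count and scaled library sizes, as the values themselves show: every value returned a whole read number (tolerance 1e-06), so read totals could be recovered. Gene IDs were matched to symbols of GENCODE M21 for 15320 of 15350 genes, and 6 IDs share a symbol.

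From these values limma 3.58.1 (R 4.3.3, statmod 1.5.0) fitted the mean of each of 4 groups over 16 libraries, with a mean-variance trend and robust moderation and 12 residual degrees of freedom. The interaction and the response in each genotype are contrasts of that fit, each adjusted over 15350 genes and called at an adjusted p under 0.05. The fit was tested on simulated data, where it missed most of the smaller simulated interactions and few of the larger ones. The criterion for passing was loosened after a first version failed it. The simulated counts had the same dispersion in all 4 groups, so false calls under the wider spread of KO isoproterenol were not tested. Groups and replicate numbers come from the sample titles and treatment labels; 3 KO saline columns carry another number in their file headers than in the title, and the titles were used. On the saline samples the treatment text describes isoproterenol, and the separate treatment label was used.

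Named genes were Ucp1 and Gdf10, the 6 genes of each gained, lost or reversed class with the largest interaction among genes of at least 1 CPM in a group whose treated and saline libraries did not overlap in the responding genotype, 3 per direction of the larger, smaller and similar classes, and up to 4 called genes per list plus those called against it. Some genes that this rule names are not reported here. Adipoq, Cycs, Cpt1b, Top2a, the 4 thermogenic genes and 4 macrophage markers given without a call, and the promoters shown were chosen after their values were seen. The members, classes and gene lists were chosen with earlier results of these data known. Precision is limited by 4 libraries a group; for genes with 3 reads or fewer in a group no fold is given. Fits were repeated with read totals, precision weights, 1 weight per group, no trend, a mean of at least 1 CPM, replicate blocks, a muscle score, each genotype's own libraries, and without each library in turn.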

Additional observations from a re-analysis of the deposited data

Results flagged for a closer look

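The genotypes differed in their isoproterenol response for 3787 genes, by the test of the difference itself.

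In 25 of the 364 groups of 4 libraries looked at, 1 library lay apart from the other 3, with a gap to the nearest that, as a share of the group's range, was above Dixon's 95% critical value; chance gives about 1 in 20. In WT saline the share was 0.831 for Ucp1, 0.902 for Rhov, 0.881 for Ceacam16, 0.932 for Fam110c, 0.88 for Hist1h1d and 0.979 for Loxl1. Over the WT saline libraries Rhov held 1 read, Ceacam16 held 11 and Fam110c also held few. The rate of 1 in 20 need not hold at so few reads. In WT isoproterenol it was 0.93 for Cabcoco1, 0.86 for Fndc5, 0.947 for Egr1, 0.966 for Ttc25 and 0.844 for Hilpda. KO saline gave 0.891 for Cabcoco1 and 0.922 for Loxl1. KO isoproterenol gave 0.84 for Sprr1a, 0.903 for Tesc, 0.879 for Ceacam16 and 0.876 for Fras1.

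Among the list scores, the share in WT saline was 0.898 for chaperones of the endoplasmic reticulum, 0.875 for pan-adipocyte markers, 0.869 for fibroblast markers and 0.892 for the circadian clock. In WT isoproterenol it was 0.853 for cholesterol synthesis and 0.921 for the lysosome, in KO saline 0.956 for macrophage markers, and in KO isoproterenol 0.955 for heat production that does not use UCP1.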

How the results depend on the processing

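The number of genes with a higher interaction was 1674, and 2895 when scaled by read totals; those with a lower one numbered 2113 and 1477. Lost responses numbered 368, and 668 with 1 weight per group or 799 when each response was called in its own genotype's libraries; reversed ones numbered 142, 382 and 257. Without 1 library in turn, the interaction was higher for 1092 to 2666 genes and lower for 1524 to 3000, with 2102 to 4046 responses gained, 181 to 569 lost and 69 to 384 reversed. The libraries that moved these counts by over 1.5 times were, for higher calls, KO isoproterenol 4 (2666), WT isoproterenol 4 (1094) and WT saline 1 (1092). For lost responses they were KO isoproterenol 1 (569), WT isoproterenol 3 (207), WT isoproterenol 4 (181) and WT saline 1 to 4 (219, 243, 219 and 225). For reversed responses they were KO isoproterenol 1 (220), KO isoproterenol 4 (384), WT isoproterenol 1, 3 and 4 (86, 79 and 69) and WT saline 1 to 4 (71, 80, 82 and 81). The cause was not tested.

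With the replicate number as a block, the interaction was higher for 1643 genes and lower for 2075, with 3488 calls shared with the fit without it, 2837 responses gained, 348 lost and 136 reversed; the calls of Shisa9, Aqp1, Rgs5 and Psmc4 were lost. A replicate block within each genotype gave 1534 higher and 1925 lower, 2691 gained, 306 lost and 104 reversed, and 13 named calls were lost. All 4 same-numbered pairs of WT saline and WT isoproterenol libraries deviated together (r over genes of 0.21 to 0.535), and 6 of these 8 libraries correlated best with their own number. In KO the values were 0.0329 to 0.239, with 2 of 4 pairs over 0.1 and 4 of 8 libraries best with their own number. The muscle scores ran alike by number within both genotypes. For replicates 1 to 4 they were 0.67, -3.47, 2.47 and 5.16 in WT saline and -0.20, -3.78, 2.05 and 3.44 in WT isoproterenol. In KO they were -2.87, 1.87, 1.78 and -3.91 with saline and -3.69, 1.17, 1.02 and -1.72 with isoproterenol. The main fit left the libraries unpaired, and the block within each genotype is the fit that allows for pairing by number. None of the 167 called genes named turned direction under any setting run; the differences near 0 of Upp1, Eln, Loxl1, Ahcyl2, Hspa12a and Col23a1 did in some. Without a mean-variance trend 6 named calls were lost (Elovl3, Acot12, Egr1, Cideb, Pcna and Psmc4), and with a muscle score 5 (Egr1, Shisa9, Cideb, Rgs5 and Psmc4). Genes with few reads are limited most by depth: a library with 3 reads of a gene is at 0.143 to 0.345 CPM.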
